A study of Arabidopsis thaliana with 2 samples.

Results

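The 4 precursors mir156a, mir156b, mir156c and mir156d carry the microRNA miR156, and they are 4 of the 151 precursors to which the 2 deposited libraries assign reads. They were chosen by name, and every read listed under a name was counted for that copy. The libraries were made by SPARE, in which the 5′ end of each RNA fragment receives an adaptor and a primer specific to each precursor starts the copying downstream, so that a tag begins where the RNA was cut. One library came from an Arabidopsis thaliana mutant, for which the labels give no more than the name fiery, and 1 from wild type of the ecotype Col-0, while no ecotype is given for fiery. Both mixed seedlings 2 weeks old with leaf and inflorescence tissue 5 weeks old, from plants kept at 23 °C with 16 h of light per day. The mutated gene is not read by the assay, so the genotype labels could not be checked.

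miR156 binds the mRNAs of SPL transcription factors, which promote the change from the juvenile to the adult phase and flowering. It is abundant in young plants and declines with age, while miR172, which acts on AP2-like factors, becomes more abundant. In plants, DICER-LIKE 1 cuts a microRNA out of a hairpin with 1 pair of cuts next to the loop and 1 pair near the base. miR156 lies on the 5′ arm of its hairpin, and the partner strand, here called the 3p RNA, lies on the 3′ arm. A fragment that begins with the 3p RNA was cut next to the loop and still carries the base, and its end is called loop-side. A fragment that begins just after the 3p RNA was cut near the base, and its end, called base-side, does not tell the order of the cuts.

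The hairpins are shown in full because each copy is described by where its ends fall on them. They were read from the TAIR10.1 reference in the direction of the transcript, with miR156 as the first run of capitals and the 3p RNA as the second.
mir156a: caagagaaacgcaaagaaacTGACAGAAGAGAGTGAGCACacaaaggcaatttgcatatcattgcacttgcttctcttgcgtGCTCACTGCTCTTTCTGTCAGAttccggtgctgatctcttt
mir156b: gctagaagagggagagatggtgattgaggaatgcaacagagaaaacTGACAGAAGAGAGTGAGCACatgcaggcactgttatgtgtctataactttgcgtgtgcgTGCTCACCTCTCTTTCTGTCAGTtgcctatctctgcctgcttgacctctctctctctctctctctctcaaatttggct
mir156c: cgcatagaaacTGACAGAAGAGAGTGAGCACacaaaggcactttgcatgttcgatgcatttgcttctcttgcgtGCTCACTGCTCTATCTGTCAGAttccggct
mir156d: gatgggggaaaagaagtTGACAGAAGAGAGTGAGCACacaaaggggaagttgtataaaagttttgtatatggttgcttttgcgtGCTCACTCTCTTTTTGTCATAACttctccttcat

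The mature RNA is the same in all 4 copies, with bases 2 to 8 (the seed) in capitals.
miR156a-5p: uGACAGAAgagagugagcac
The 3p RNAs differ in each copy.
miR156a-3p: gcucacugcucuuucugucaga
miR156b-3p: ugcucaccucucuuucugucagu
miR156c-3p: gcucacugcucuaucugucaga
miR156d-3p: gcucacucucuuuuugucauaac
The 3p RNAs of mir156a and mir156c differ by U13A, counted from the first base of the 3p RNA of mir156a. That of mir156d is the farthest from the others, with an edit distance of 5 to mir156a, 6 to mir156c and 7 to mir156b. No tag sequence of the 4 copies was listed under another precursor name, and all 70 listed tags had a single exact match in the genome.

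The copies lie on 3 chromosomes. mir156a (AT2G25095) is at chr2:10676451-10676573 on the minus strand and mir156c (AT4G31877) at chr4:15415418-15415521 on the minus strand, neither within another annotated transcript. mir156b (AT4G30972) is at chr4:15074899-15075081 on the plus strand, inside an exon of the non-coding transcript AT4G30975 of the same strand. mir156d (AT5G10945) is at chr5:3456632-3456749 on the minus strand, in an intron of both transcripts of the protein-coding gene AT5G10946 of the same strand. The annotated hairpins are 123, 183, 104 and 118 nt long in the order a to d, and RNAfold gave minimum free energies of -55.9, -92.1, -49.3 and -58.1 kcal/mol. The distance between miR156 and its 3p RNA, which is the loop end of the hairpin, is similar in the copies, at 42, 39, 43 and 47 nt.

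The fiery library held 992 reads of the 4 precursors, 2.99% of its 33192 reads (exact Clopper-Pearson 95% interval 2.81 to 3.18). The wild-type library held 63 reads, 0.519% of its 12129 (0.399 to 0.664). With 1 library per genotype there was no test and no replicate check of any difference. All intervals are for counting error alone, because reads amplified by PCR without molecular identifiers are not separate molecules. In these mixed tissues, fewer cells of a type and less RNA per cell cannot be told apart. Tags were at most 40 nt long in fiery and 50 nt in wild type. The minimum of 10 reads for describing ends was met by all 4 copies in fiery and by mir156b and mir156d in wild type, and counts alone are given for the other 2 copies in wild type.

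In fiery, mir156c gave a single sharp end at the base. Of its 591 reads, 546 (92.4%, 89.9 to 94.4) were at the base-side cut, taken as within 1 nt of the annotated position, and 530 of these started at exactly chromosome 4, position 15415425. The 32 loop-side reads (5.41%, 3.73 to 7.56) started mostly at position 15415447, with 26 reads. The main tags of these 2 ends are given with the nucleotides of the 3p RNA in capitals.
mir156c base-side: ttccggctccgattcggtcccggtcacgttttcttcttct
mir156c loop-side: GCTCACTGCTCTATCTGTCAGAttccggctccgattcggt
Another 10 reads lay beyond the base-side cut, and 3 lay 1864 and 2109 nt downstream of the hairpin on the same strand, where no gene is annotated. In wild type the same 2 positions held 5 base-side and 2 loop-side reads of 9, and the last 2 reads started 133 nt upstream of the hairpin.

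mir156a had the fewest reads, and its main end was also base-side. In fiery, 22 of its 30 reads (73.3%, 54.1 to 87.7) were base-side, 18 of them exactly at chromosome 2, position 10676469. The 7 loop-side reads (23.3%, 9.93 to 42.3) shared 1 position, 10676491, the first nucleotide of the 3p RNA. The remaining read started 2 nt before the base-side cut. In wild type there were 2 base-side reads and 1 loop-side read, at the main fiery positions.

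In mir156d, loop-side and base-side reads were nearly equal in number and the base-side cut was spread over neighbouring nucleotides. In fiery, 103 of its 236 reads (43.6%, 37.2 to 50.2) were loop-side and 106 (44.9%, 38.5 to 51.5) base-side. Its main end was the loop-side position at chromosome 5, 3456665, with 97 reads, whereas the base-side reads fell on 3 adjacent positions with 46, 9 and 51 reads. The annotated base-side position, in the middle, had the fewest of the 3. Another 12 reads started between the cuts and 15 beyond the base. The main tags show the 2-nt step between the larger base-side ends.
mir156d loop-side: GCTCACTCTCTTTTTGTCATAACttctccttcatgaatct
mir156d base-side, 46 reads: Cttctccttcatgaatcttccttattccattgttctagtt
mir156d base-side, 51 reads: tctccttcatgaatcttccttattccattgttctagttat
In wild type, 6 of the 10 reads of mir156d had the loop-side position, 2 the first of the base-side positions and 1 the nucleotide before it. The last read started 21 nt beyond the cut. All short tags of mir156d (35 nt or less) ended at the same nucleotide, 39 nt past the annotated hairpin, so that the base-side end with 51 reads in fiery would give a tag of 49 nt. No tag of 46 to 49 nt of any precursor was listed in wild type, so this end could not be seen there.

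**Figure D1:**
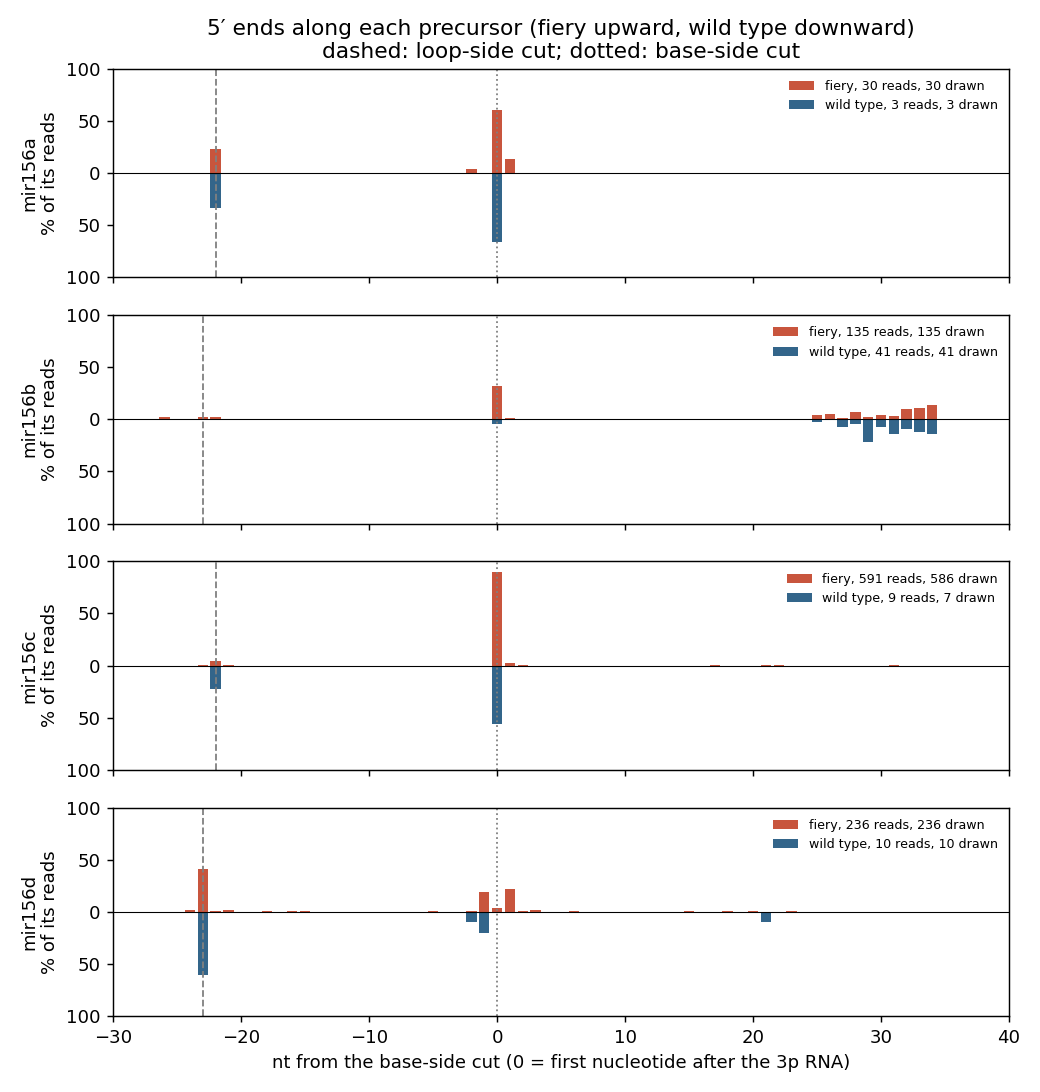
Percent of the reads of each copy (vertical axis, fiery upward and wild type downward) by the position of the 5′ end relative to the base-side cut in nt (horizontal axis). mir156c has 1 tall bar at the base-side cut, mir156d has its tallest bar at the loop-side cut, and mir156b has a run of ends 25 to 34 nt beyond the base.

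The sharpness of each cut was described in fiery by the share of its main position among reads within 3 nt, a window chosen after the values were seen. At the base, the main position held 530 of 548 reads in mir156c (96.7%, 94.9 to 98.0), 43 of 44 in mir156b (97.7%, 88.0 to 99.9) and 18 of 23 in mir156a (78.3%, 56.3 to 92.5). In mir156d it held 51 of 117 (43.6%, 34.4 to 53.1), an interval below those of the other 3 copies. At the loop, mir156d had 97 of 107 reads at 1 position (90.7%, 83.5 to 95.4), against 26 of 32 in mir156c (81.2%, 63.6 to 92.8) and 7 of 7 in mir156a. The spread of mir156d was thus larger at the base than at the loop, and its loop-side interval overlapped those of mir156a and mir156c. mir156b, with 9 loop-side reads within 3 nt, had 3 at each of 3 positions.

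The cuts also fix the length of the 3p RNA that would be released. From the main loop-side end to the main base-side end this length was 22 nt in mir156a and in mir156c. For mir156b it was 22 or 23 nt, from 2 loop-side ends with 3 reads each. For mir156d the 3 base-side ends gave 22, 23 and 24 nt. By the RNAfold structure, a cut at the main base-side end of mir156a, mir156b and mir156c leaves an overhang of 2 nt past the partner of the first base of miR156. The 3 ends of mir156d leave 3, 4 and 5 nt. Every base of miR156 is paired in all 4 predicted hairpins.

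**Figure D2:**
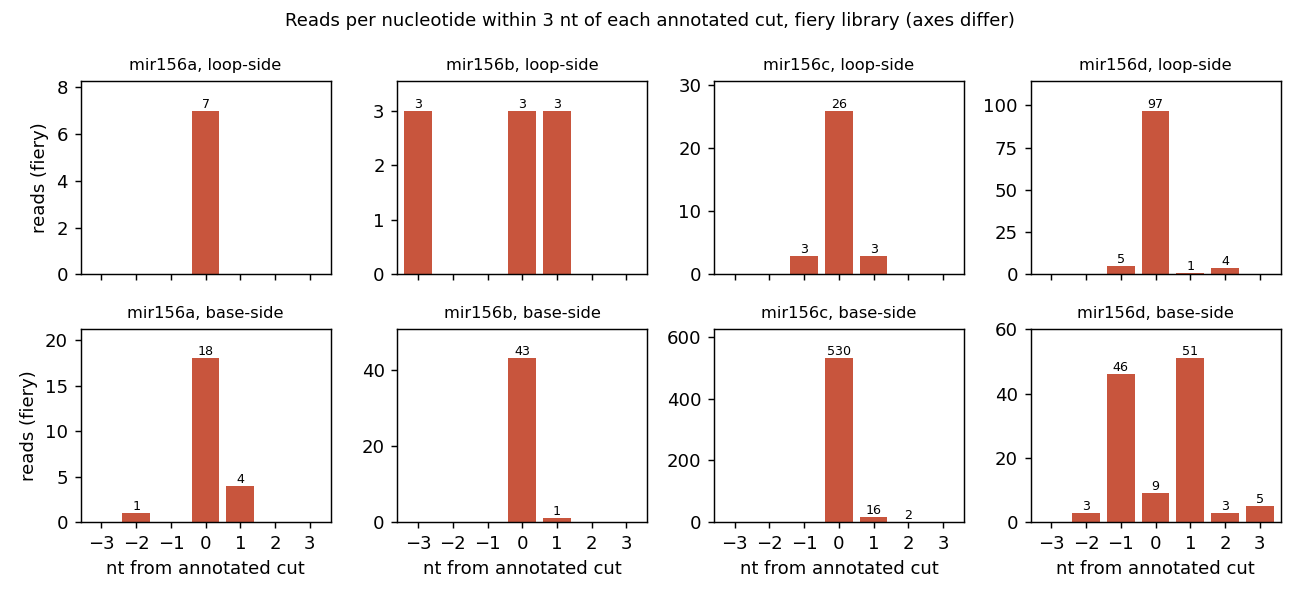
Reads of the fiery library (vertical axis, its range differs between panels) at each nucleotide within 3 nt of the annotated loop-side cut (upper row) and base-side cut (lower row). The base-side reads of mir156d sit on either side of the annotated position, with 46 and 51 reads against 9 on it, whereas those of mir156c are 530 on it.

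mir156b was the only one of the 4 copies in which most reads lay beyond the base. In fiery, 82 of its 135 reads (60.7%, 52.0 to 69.0) started there, against 44 (32.6%, 24.8 to 41.2) at the base-side cut and 6 (4.44%, 1.65 to 9.42) at the loop-side cut. The other 3 reads started 3 nt upstream of the loop-side cut. In wild type, 39 of 41 reads (95.1%, 83.5 to 99.4) lay beyond the base, and the other 2 were at the base-side cut. The loop-side cut of mir156b had no read in wild type, and a count of 0 allows up to 7.32% of the 41 reads (3 counts), with an exact 95% upper bound of 8.60%.

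All 82 and 39 of these reads started inside a run of CT repeats of 22 nt, at nucleotides 151 to 172 of the hairpin (chr4:15075049-15075070). The main tag at the base-side cut reads through the start of this run, and the most frequent tag beyond the base in each library starts within it.
mir156b base-side: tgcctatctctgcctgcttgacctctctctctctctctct
mir156b beyond the base, fiery: ctctctctctcaaatttggcttagac
mir156b beyond the base, wild type: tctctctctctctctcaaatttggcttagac
The ends were spread over 10 positions in fiery and 9 in wild type, from 25 to 34 nt beyond the cut, with 1 to 18 reads each in fiery and 1 to 9 in wild type. The tags in this run were 26 to 35 nt long, and all 121 had the same 3′ end, 5 nt past the hairpin. The last position, 163, is also the last that could give a tag of 26 nt, the shortest in both files, so that ends further into the run could not be seen. In fiery no tag of 36 to 39 nt was listed for any precursor, so that ends at nucleotides 150 to 153, just before the first one found at 154, could not be seen either. In the fiery library, 53 of the 82 reads began with C (64.6%, 53.3 to 74.9), and 15 of 39 did in wild type (38.5%, 23.4 to 55.4). These intervals overlap. In alternating C and T the first base follows from the position, and the largest counts were at 163 in fiery (18 reads) and 158 in wild type (9 reads). A second transcript of AT4G30975 is annotated to start at nucleotide 144 of the hairpin, 10 to 19 nt before these ends.

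**Figure D3:**
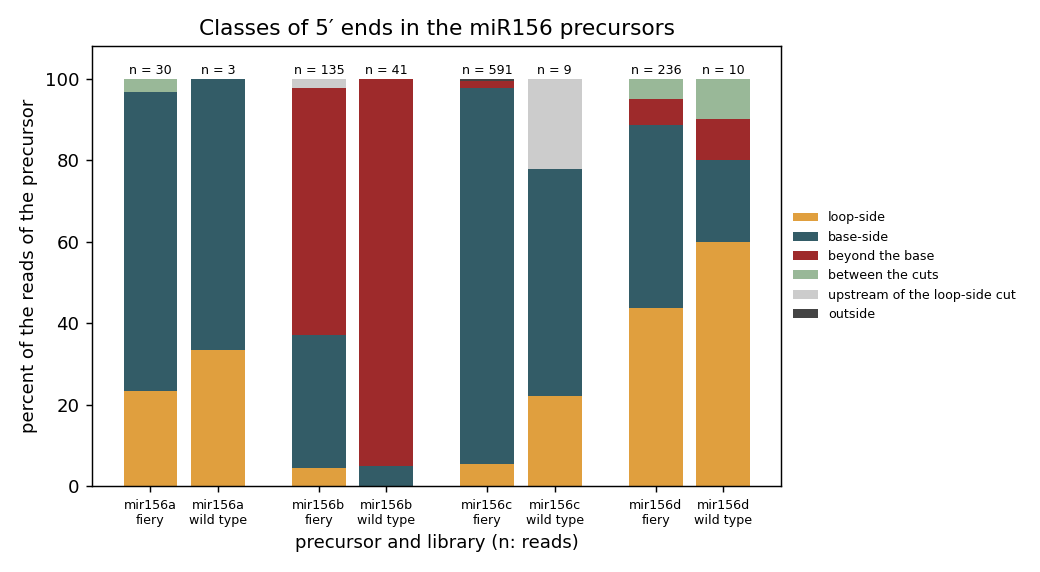
Share of the reads of each copy (vertical axis, percent) in each class of 5′ end, by copy and library, with the number of reads above each bar. Ends beyond the base hold 60.7% and 95.1% of the mir156b reads, and loop-side ends hold 43.6% of the mir156d reads in fiery.

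Between the libraries, the share of mir156c was 24.0-fold higher in fiery (exact conditional 95% interval 12.6 to 52.7), from 591 reads (1.78% of the library) against 9 (0.0742%). For mir156d the ratio was 8.62 (4.61 to 18.2), from 236 reads (0.711%) against 10 (0.0824%). The 236 reads include the 51 at the base-side end, and 3 and 5 just beyond it, that could not be seen in wild type. For mir156a the ratio was 3.65 (1.14 to 18.7), from 30 reads (0.0904%) against 3 (0.0247%). mir156b, with 135 reads (0.407%) against 41 (0.338%), had a ratio of 1.20, and its interval held 1 (0.843 to 1.75).

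Of the 4 copies, 3 were at least 2-fold higher in fiery, where 38.3% of the 81 precursors compared were, which are those with 30 or more reads over the 2 libraries. The same 3 had an interval above 1, against 44.4% of those precursors. The median ratio was 6.14 over the 4 copies and 1.02 over the 81 precursors. Over the 31 precursors with 30 or more reads in each library it was 0.520, and when ratios were scaled by this median mir156b stood at 2.31 (1.62 to 3.36). With that scaling all 4 copies were at least 2-fold higher and had an interval above 1, against 49.4% and 51.9% of the 81 precursors. mir156c ranked 13th by reads in fiery and 77th in wild type, while mir156b ranked 29th and 34th.

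Reads of mir156b that started in the run of CT repeats, 82 in fiery and 39 in wild type, had a ratio of 0.768 (0.519 to 1.16), and 53 and 2 reads started elsewhere. With only reads at the 2 cuts, an alternative added after the data were seen, mir156b was 9.14-fold higher in fiery (2.40 to 77.5), from 50 reads against 2. The same reads gave ratios of 3.53 (1.09 to 18.1) for mir156a, 30.2 (14.6 to 75.4) for mir156c and 9.55 (4.76 to 22.4) for mir156d. Over the 4 copies, the base-side reads numbered 718 in fiery and 11 in wild type, and the loop-side reads 148 and 9. The 718 and the fiery reads in every ratio of mir156d include 51 at the base-side end that could not be seen in wild type. How much these reads add to the ratios was not tested. Tags of 35 nt or less held 9.38% of the miR156 reads in fiery and 63.5% in wild type, against 22.4% and 65.6% of all reads. When tags longer than 35 nt alone were counted, the ratio was 1.62 (0.504 to 8.30) for mir156a, 4.29 (1.13 to 36.4) for mir156b, 10.5 (5.52 to 23.2) for mir156c and 4.14 (2.14 to 9.17) for mir156d, so that the interval of mir156a then held 1.

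**Figure D4:**
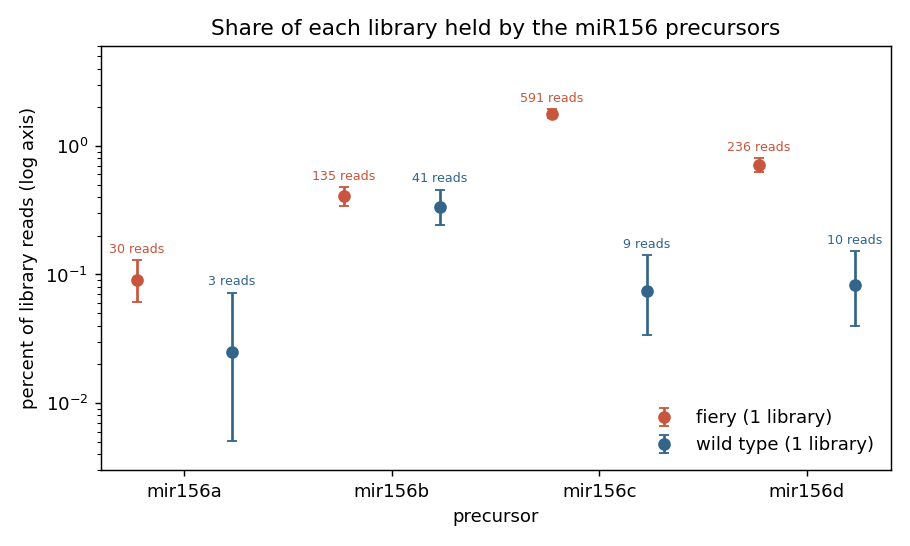
Percent of the library reads held by each copy (log axis) in fiery and in wild type, as points with exact 95% intervals of counting error and the reads beside each point. mir156c stands 24.0-fold apart between the libraries and the intervals of mir156b overlap.

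The loop-side share, which is the percent of reads at the 2 cuts that were loop-side, differed widely among the 4 copies in fiery. It was 5.54% in mir156c (3.82 to 7.73, 578 reads at the cuts), 12.0% in mir156b (4.53 to 24.3, 50 reads), 24.1% in mir156a (10.3 to 43.5, 29 reads) and 49.3% in mir156d (42.3 to 56.3, 209 reads). In this order, mir156c and mir156b, and mir156b and mir156a, are neighbours whose intervals overlap. The intervals of mir156a and mir156d overlap as well, and those of mir156c and mir156d lie far apart. For mir156d the value depends on the window, since it was 91.5% (84.5 to 96.0) at the exact annotated positions, where 9 base-side reads were left. In wild type no copy had 10 reads at the cuts. The loop-side and base-side reads there were 1 and 2 in mir156a, 0 and 2 in mir156b, 2 and 5 in mir156c, and 6 and 2 in mir156d. For mir156d the base-side end with 51 of the 106 base-side reads in fiery could not be seen in wild type. Its wild-type counts are therefore not comparable with its share in fiery.

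Precursors of the same pathway (miR157 and miR172) and of 2 further families (miR160 and miR171) were set beside miR156 as values only. The miR157 precursors, whose product also acts on SPL mRNAs, had 7 reads at most in a library, with reads for 3 of 4 copies. No read of mir157b or mir157c was at an annotated cut. mir157d, with 1 read, does not have exactly 1 annotated 3p RNA, so that its read could not be classed at a cut. Of the 5 miR172 precursors, 3 had 10 reads at the cuts, and mir172a, mir172b and mir172d had 0, 1 and 0 loop-side reads among 109, 526 and 54 reads at the cuts in fiery, and none among 70, 150 and 50 in wild type. The exact 95% intervals of mir172a (up to 3.33%) and mir172b (up to 1.05%) in fiery lay below that of each miR156 copy, while that of mir172d (up to 6.60%) overlapped those of mir156b and mir156c. Between the libraries, mir172a (256 reads in fiery, 3426 in wild type) had a ratio of 0.0273 (0.0240 to 0.0310), mir172d one of 0.207 (0.146 to 0.291) and mir172b one of 1.12 (0.951 to 1.33). By all reads, none of the 3 miR172 precursors compared was at least 2-fold higher in fiery, where 38.3% of the 81 precursors were. At least 2-fold lower were 2 of the 3, against 39.5% of the 81. Of the wild-type reads of mir172a, 3329 (97.2%) lay beyond the base. With reads at the 2 cuts alone, counted in this way after the data were seen, the ratio was 0.569 (0.418 to 0.780) for mir172a, 0.395 (0.264 to 0.592) for mir172d and 1.28 (1.07 to 1.55) for mir172b.

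Of the miR160 precursors, which act on auxin response factors, mir160a had a loop-side share of 29.6% in fiery (24.8 to 34.9) and a ratio of 15.7 (7.89 to 36.7). mir160c had 4 reads in fiery and 36 in wild type, where its share was 63.6% (40.7 to 82.8). The miR171 precursors, which act on GRAS-domain factors, had fiery loop-side shares of 0% (mir171a), 22.0% (mir171b) and 16.9% (mir171c), and wild-type shares of 0%, 20.1% and 97.7%. For mir171c, the loop-side and base-side reads were 61 and 299 in fiery, and 43 and 1 in wild type. Wild type had no tags of 46 to 49 nt and fiery none of 36 to 39 nt. Whether this hid cut ends of the compared families was not tested, which limits their shares and ratios at the cuts. The values of mir171b and mir171c in fiery fell within the range of the miR156 copies. By all reads, none of the 3 miR171 precursors was at least 2-fold higher in fiery, where 38.3% of the 81 precursors were. The ratio of mir171c was 1.88 (1.46 to 2.44). The other 2 were at least 2-fold lower, where 39.5% of the 81 precursors were. By reads at the cuts, mir171c was 2.99-fold higher (2.18 to 4.19), from 360 reads against 44, mir171a had a ratio of 0.259 (0.195 to 0.342), mir171b one of 0.0887 (0.0614 to 0.125) and mir160a one of 20.3 (9.25 to 55.8). The differences between families were not tested, because each library is a single sample.

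**Figure D5:**
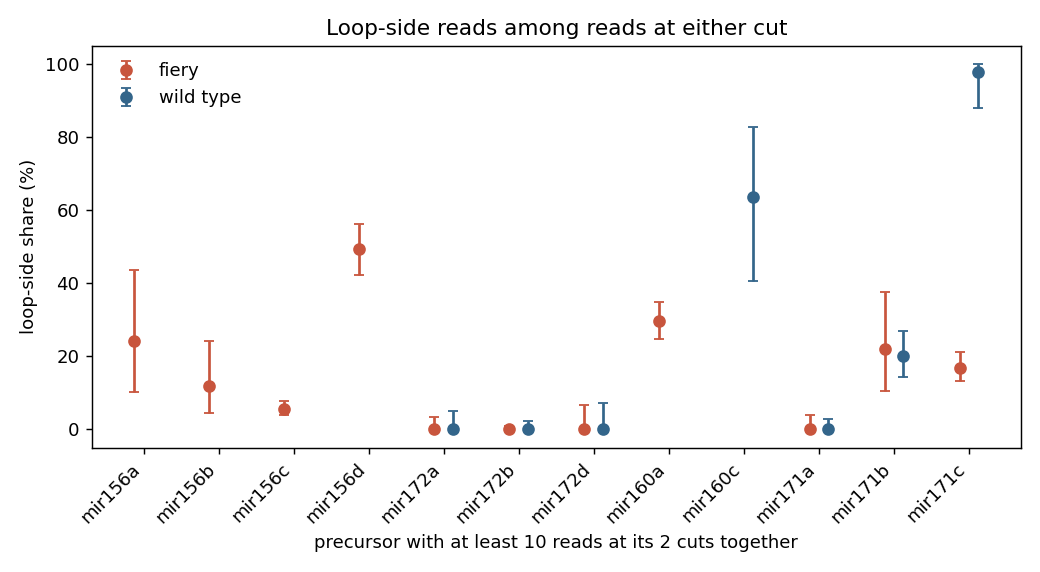
Loop-side share in percent (vertical axis) of each miR156, miR172, miR160 and miR171 precursor with at least 10 reads at its 2 cuts, as points with exact 95% intervals, for fiery and wild type. The miR156 copies run from 5.54% to 49.3% in fiery, and the miR172 precursors lie at or near 0 in both libraries.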

How the data were processed

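The deposited files list sequence tags, the authors' precursor name for each and its abundance, which is a whole-number read count, not normalised as far as the values show. Per the labels' protocols, RNA depleted of ribosomal RNA was ligated to an adaptor, reverse transcribed with precursor-specific primers and amplified in 18 PCR cycles. Bowtie and the build TAIR10 are named per the submitters' processing notes. How tags were assigned to names is not given in the sources used here. Totals were 33192 reads (fiery) and 12129 (wild type). A count of 0 allows 0.00904% and 0.0247% of the library.

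Tags were matched exactly to TAIR10.1 with the RefSeq annotation, from which the sequences were read (1-based coordinates). The copies mir405a, mir405b and mir405d were counted as 1 precursor. Cuts were taken within 1 nt of the annotated 3p RNA. Shares carry Clopper-Pearson and ratios exact conditional binomial 95% intervals, ratios from 30 reads in both libraries together, ends from 10 reads. Members, lists and alternatives were chosen with earlier results of these data known. All 4 members are named, and listed precursors with at least 30 reads in either library. The scripts were tested on simulated data. Python 3.11.15, numpy 2.4.6, pandas 2.3.3, scipy 1.17.1, matplotlib 3.10.9 and RNAfold 2.7.2 were used.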

Additional observations from a re-analysis of the deposited data

How the results depend on the processing

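The alternatives were other windows, only tags longer than 35 nt, distinct tags counted once, single-match tags, tags within 200 nt, totals without the top precursor of either library, a median-ratio scaling, fiery thinned to the wild-type depth and at least 30 reads at the cuts, which left mir156a without a share. Reads at the cuts alone were added after the data were seen. Among the recomputed ratios and loop-side shares, 43 stayed within the counting interval of the reported value. Of these, 15 were identical to it, most of them because the setting left the same reads. The 8 values outside that interval were as follows. Tags longer than 35 nt gave ratios of 4.29 for mir156b, 10.5 for mir156c and 4.14 for mir156d. For mir156b the ratio was 2.31 when scaled by the median of 0.520 over 31 precursors, with an interval of 1.62 to 3.36 that leaves out 1, and 9.14 with only reads at the cuts. The loop-side share in fiery was 91.5% for mir156d at the exact positions, and 50% for mir156b and 60% for mir156c with distinct tags counted once, which put mir156c above mir156d (50%) and so turned the order of the copies. The causes were not tested. The interval of the mir156a ratio also held 1 with only single-match tags (0.996 to 16.4). Distinct tags gave no main end, since all ends tied. The depth of wild type, with 3 to 41 reads per copy, limits every comparison with it. No paired analysis was possible because each genotype had 1 library.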

Other observations

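Reads were also listed under 2 other miR156 names. mir156g had 6 reads in fiery and 11 in wild type. mir156h had 16 in fiery and 0 in wild type, where a count of 0 allows up to 0.0247% of the library. Their ends were not classed here.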
